A study of Homo sapiens with 7 samples.

Results

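Proteasome genes were taken here as the 50 protein-coding genes in the RefSeq table of GRCh38.p14 (the sequence of build hg38) whose symbols begin with PSMA, PSMB, PSMC, PSMD, PSME, PSMF or PSMG, out of 20037 on the nuclear chromosomes. A gene counted as carrying Myc when a peak summit lay inside the gene or within 1 kb of it. Of the 50, PSMC3IP and PSME3IP1 share the prefix but encode no subunit: the first acts in meiotic recombination and the second binds the activator PSME3. The peaks came from CUT&RUN, in which an antibody tethers a nuclease to its target and the DNA cut free is sequenced, in HT29, an established human colon adenocarcinoma line. By the titles there were 3 Myc libraries, 3 IgG libraries and 1 input, from cells given oleic acid, a fatty acid, for 6 h without serum. The labels name a single Myc antibody for both the Myc and the IgG libraries, so the titles set the groups. Every group shares the oleic acid treatment, so nothing here shows a change caused by it, and no expression was measured, so the identity of the line could not be checked against marker genes.

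The proteasome is the protease of the nucleus and cytosol that destroys proteins tagged with ubiquitin. Its 20S core is a barrel with outer alpha rings, built from PSMA subunits, and inner beta rings, built from PSMB subunits, of which PSMB5, PSMB6 and PSMB7 carry the cutting sites. The 19S regulatory particle caps the barrel: its ring of PSMC ATPases unfolds substrates, and its PSMD subunits bind ubiquitin, remove it and hold the particle together. Cells that see interferon exchange the cutting subunits for PSMB8, PSMB9 and PSMB10, giving the immunoproteasome, which produces peptides for display on MHC class I. Myc is a transcription factor that binds DNA with its partner MAX, by preference at the E-box CACGTG.

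The values are those of the authors' single peak list, which held 47016 peaks on the nuclear chromosomes, with a median fold enrichment of 4.11 and a median pileup of 29 fragments at the summit. The fold is the authors' ratio of Myc signal to the control level at the summit. The lowest control level in the list was 5.09. The strongest peaks of 8 proteasome genes stood at it, among them those of PSMB5, PSMB10, PSME1 and PSME2, so whether it was a local level there is unknown. The list holds 1 value per peak and none per library, and how far replicates differ is therefore unknown. Beside each fold in parentheses stands a 95% interval, worked out from the Poisson distribution of the fragments over the summit with a fixed control level. It covers counting error only.

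Myc peaks were found at 47 of the 50 proteasome genes (94.0%, Wilson 95% interval 83.8 to 97.9), while 68.8% of all protein-coding genes had one by the same rule. The strongest peak of these genes had a median fold of 9.63, with values from 2.79 to 21.3, beside a median of 7.83 over the 13793 protein-coding genes with a peak. Of the 50 genes, 34 (68.0%) had a fold above that median, against 34.4% of all protein-coding genes. The interval of the fold lay wholly above the median of all genes with a peak for 23 proteasome genes and spanned it for 19. It lay wholly below it for 5, namely PSMB6, PSMB7, PSMD3, PSMD6 and PSMD11. The same count was not made over all genes with a peak, so these numbers do not set proteasome genes apart. The median proteasome gene was 13551.5 bp long and the median protein-coding gene 24115 bp, so the window around proteasome genes was on the whole the shorter one.

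**Figure D1:**
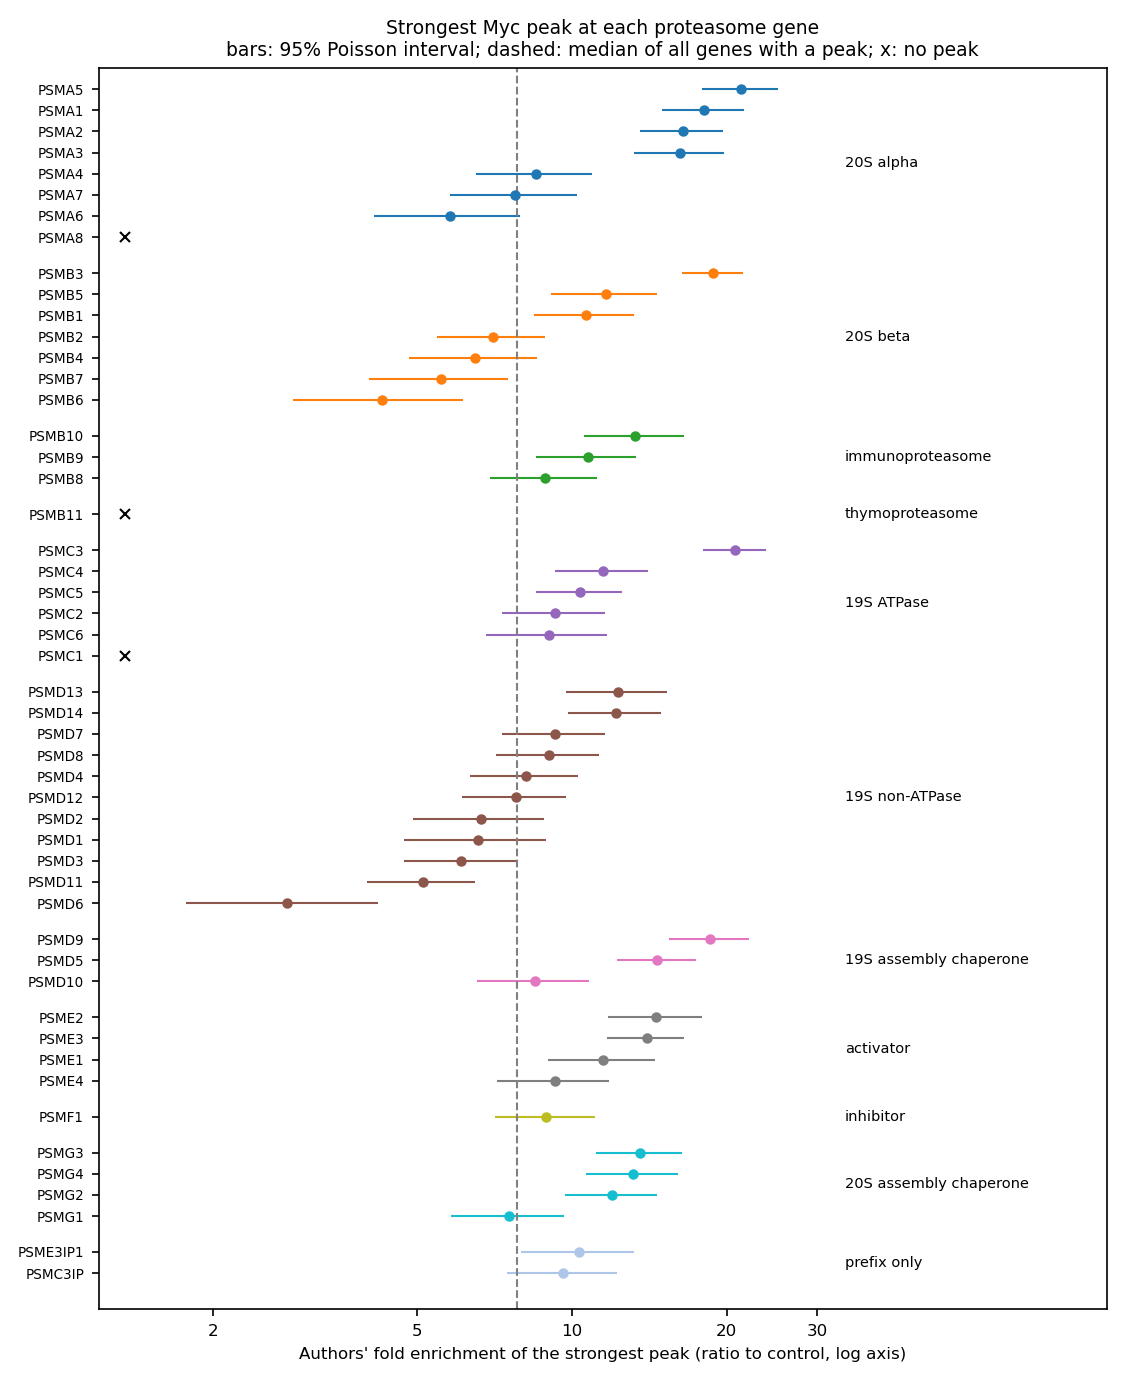
Each point is the authors' fold of the strongest Myc peak at 1 gene (log axis), bars are 95% Poisson intervals, the dashed line is the median of 7.83 over all genes with a peak, and a cross marks a gene with no peak. PSMA5 and PSMC3 stand at the top at 21.3 and 20.8, PSMD6 lies lowest at 2.79, and PSMA8, PSMB11 and PSMC1 have a cross.

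Among the alpha subunits of the core, 7 of 8 genes had a peak (Wilson 95% interval 52.9 to 97.8%, beside 68.8% of all genes). Their median fold was 16.2, and they fell into a high and a low set. PSMA5 (chromosome 1, 109399042 to 109426448) had a fold of 21.3 (95% interval 17.9 to 25.2), from 133 fragments over a control level of 5.28 and with a −log10 q of 129. It was the highest of all 50 genes and above 97.9% of the genes with a peak, though without peaks wider than 2 kb its value would be the 6.56 of a further peak. PSMA1 (chromosome 11, 14504876 to 14643662) had 18.1 (15 to 21.6), from 118 fragments over 5.58 and with a −log10 q of 106, but that summit lay 337 bp beyond the higher end of the gene, 123613 bp before its tabled start, and also within 1 kb of PDE3B. The peak at the tabled start of PSMA1 had a fold of 14.3 (12.0 to 17.0). PSMA2 had 16.4 and PSMA3 16.2, while PSMA4 had 8.52, PSMA7 7.76 and PSMA6 5.79 (4.12 to 7.92). The value of PSMA6 (chromosome 14, 35278558 to 35317493) came from 37 fragments over 5.57, with a −log10 q of 16.1. The intervals of PSMA5, PSMA2 and PSMA3 did not overlap those of PSMA4, PSMA7 and PSMA6. The PSMA2 summit also lay near MRPL32, which encodes a mitochondrial ribosomal protein.

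All 7 beta subunit genes of the standard core had a peak (Wilson interval 64.6 to 100%, beside 68.8% of all protein-coding genes). Their median fold was lower, at 7.01. PSMB3, a beta subunit without a cutting site, stood out (chromosome 17, 38752741 to 38764225): its fold was 18.8 (16.4 to 21.6), from 209 fragments over a control level of 10.2, and its peak was the widest of those at proteasome genes, at 5711 bp. PSMB1 had 10.6 (8.44 to 13.2), with a summit that also lay near TBP, the gene of the TATA-binding protein. With a reach of 500 bp or summits inside the gene only, PSMB1 had no peak. Nor had it one when peaks went to the nearest gene only, or without peaks near another gene or wider than 2 kb. PSMB2 and PSMB4 had 7.01 and 6.49. The genes of the cutting sites differed from each other. PSMB5, the chymotrypsin-like subunit, had a fold of 11.7 (9.12 to 14.7), from 70 fragments over a control level of 5.09. PSMB7, the trypsin-like subunit, had 5.56 (4.03 to 7.5), from 41 fragments over 6.55. PSMB6, the caspase-like subunit, had 4.26 (2.86 to 6.13), from 27 fragments over 5.57; 14.4% of genes with a peak lay below it. The interval of PSMB5 did not overlap those of PSMB6 and PSMB7.

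The promoters of the genes with the highest folds PSMA5, PSMC3, PSMB3 and PSMD9 are shown because each holds the E-box or a variant of it. The summits of these 4 genes lay outside the printed sequences, 170 bp after the start at PSMA5, 137 bp after it at PSMD9, 330 bp before it at PSMC3 and 376 bp before it at PSMB3, so the marked letters are not under the summits. Sequences are from RefSeq, GRCh38.p14, and run 5′ to 3′ from 250 bases before the tabled start to the 30 bases that begin with it. In PSMA5 (chr1:109426419-109426698, minus strand) and PSMC3 (chr11:47426410-47426689, minus strand) capitals mark the E-box variant CACGCG or its reverse complement, 7 and 124 bases before the start. In PSMB3 (chr17:38752491-38752770, plus strand) and PSMD9 (chr12:121888540-121888819, plus strand) capitals mark the E-box, 238 and 131 bases before the start, and matches to TGACNNNGC, a pattern like the antioxidant response element.
PSMA5: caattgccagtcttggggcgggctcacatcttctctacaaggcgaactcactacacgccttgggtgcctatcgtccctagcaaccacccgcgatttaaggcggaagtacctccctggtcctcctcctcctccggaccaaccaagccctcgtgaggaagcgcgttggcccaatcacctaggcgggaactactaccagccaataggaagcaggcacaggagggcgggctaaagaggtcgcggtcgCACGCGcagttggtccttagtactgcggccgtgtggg
PSMC3: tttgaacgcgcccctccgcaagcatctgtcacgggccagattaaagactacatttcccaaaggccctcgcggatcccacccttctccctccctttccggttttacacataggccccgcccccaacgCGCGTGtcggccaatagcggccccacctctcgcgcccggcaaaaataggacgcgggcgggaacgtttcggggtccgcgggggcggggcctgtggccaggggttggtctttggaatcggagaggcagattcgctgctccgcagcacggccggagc
PSMB3: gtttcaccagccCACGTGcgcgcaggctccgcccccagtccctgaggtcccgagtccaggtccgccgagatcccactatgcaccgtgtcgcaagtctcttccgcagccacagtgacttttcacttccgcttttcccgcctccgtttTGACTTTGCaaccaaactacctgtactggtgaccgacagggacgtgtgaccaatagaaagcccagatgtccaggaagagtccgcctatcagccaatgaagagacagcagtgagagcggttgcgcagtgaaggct
PSMD9: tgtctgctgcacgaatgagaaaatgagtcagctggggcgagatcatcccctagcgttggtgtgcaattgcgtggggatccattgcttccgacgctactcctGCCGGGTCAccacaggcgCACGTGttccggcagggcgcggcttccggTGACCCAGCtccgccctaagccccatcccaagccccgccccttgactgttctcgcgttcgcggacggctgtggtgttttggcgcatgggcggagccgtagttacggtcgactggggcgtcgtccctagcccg

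All 3 immunoproteasome genes had a peak (Wilson interval 43.9 to 100%, beside 68.8% of all protein-coding genes). Their folds were 13.3 at PSMB10, 10.7 at PSMB9 and 8.89 at PSMB8. Each lay above the median of 7.83 over all genes with a peak, but the interval of PSMB8 spanned that median. At PSMB10 (chromosome 16, 67934506 to 67936850) the fold was 13.3 (10.6 to 16.5), from 80 fragments over a control level of 5.09, and the summit lay 1271 bp inside the gene in a peak that reached from 67935049 to 67937135 and so covered the start at 67936850. When that wide peak was left out, the value of PSMB10 was 3.18. PSMB9 (chromosome 6, 32854192 to 32859851) had 10.7 (8.54 to 13.3), with 80 fragments over a control level of 6.55. PSMB8 (chromosome 6, 32840717 to 32844679) had 8.89 (6.94 to 11.2), with 69 fragments over a control level of 6.88. The −log10 q was 62.0, 53.9 and 41.1 at PSMB10, PSMB9 and PSMB8. PSMB8 and PSMB9 lie on both sides of TAP1, a subunit of the transporter that carries peptides into the endoplasmic reticulum, and both summits were also in reach of TAP1, so that these peaks cannot be assigned to the proteasome genes alone.

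Set against the genes they replace, the immunoproteasome genes had higher folds in 2 pairs of 3. PSMB9 had 2.52 times the fold of its counterpart PSMB6, and PSMB10 had 2.39 times that of PSMB7, in both cases with intervals that did not overlap. PSMB8 had 0.763 times the fold of PSMB5, and their intervals overlapped. The first 2 differences depended on how peaks were linked to genes. Without peaks wider than 2 kb, or with summits counted only within 1 kb of an end of the gene, PSMB10 had 3.18 and PSMB7 5.56, which turns the direction. PSMB9 had no peak to compare without peaks wider than 2 kb, with summits inside the gene only, or once peaks were given to the nearest gene or those near another gene were left out. Each ratio sets 1 peak against another in 1 list, and the spread between libraries behind it is unknown. The median fold was 9.58 over the 14 core genes with a peak, 9.02 over the 16 of the 19S particle and 10.7 over the 3 immunoproteasome genes, while members of a class ranged from 4.26 to 21.3 in the core and from 2.79 to 20.8 in the 19S particle.

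**Figure D2:**
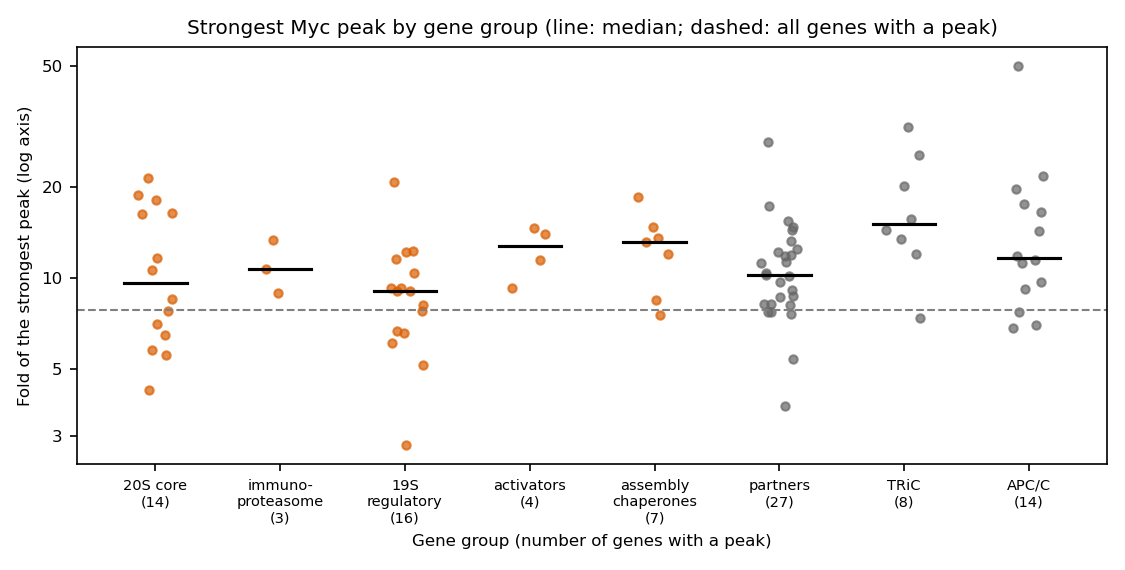
Points are the fold of the strongest peak of each gene (log axis) by group, lines are group medians and the dashed line is the median of 7.83 over all genes with a peak. Core, immunoproteasome and 19S medians lie close together at 9.58, 10.7 and 9.02, and the chaperonin TRiC lies higher at 15.

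The activator genes that interferon induces had folds in the range of the immunoproteasome genes or above. PSME1 (chromosome 14, 24136194 to 24138962), the alpha subunit of the PA28 activator that opens the barrel, had a fold of 11.5 (8.97 to 14.5), from 69 fragments over 5.09. PSME2 (chromosome 14, 24143365 to 24146610), its beta subunit, had 14.6 (11.7 to 18.0), from 88 fragments over 5.09, at a summit also near RNF31, a ubiquitin ligase gene. With summits inside the gene only, neither gene had a peak. PSME2 also had none with a reach of 500 bp, with peaks given to the nearest gene, or without peaks near another gene or wider than 2 kb. The −log10 q was 49.3 at PSME1 and 71.7 at PSME2. A pattern of GAAA repeated after 2 free bases, the core of elements through which interferon factors act, was searched on both strands in the windows from 250 bases before to 50 after each start. It was found in 7 of the 44 proteasome genes with a promoter in the table (15.9%), in 4.16% of all 15843 protein-coding genes with one and in 3.83% of those with a Myc peak. The 7 were PSMB8, PSMB10, PSME1 and PSME2, and also PSMA4, PSMB4 and PSMG4, while the window of PSMB9 had no match. In the first 4 the match read GAAAGCGAAA on one strand or the other. At PSMB8 it was in the window of the downstream start only. The window of the upstream start, which lay 58 bp from the Myc summit, had no match. The summits of these 4 genes too lay outside the printed sequences. These promoters are shown for that shared word, in capitals: PSMB8 at its downstream start (chr6:32844018-32844297, minus strand), PSMB10 (chr16:67936821-67937100, minus strand), PSME1 (chr14:24135944-24136223, plus strand) and PSME2 (chr14:24146581-24146860, minus strand).
PSMB8: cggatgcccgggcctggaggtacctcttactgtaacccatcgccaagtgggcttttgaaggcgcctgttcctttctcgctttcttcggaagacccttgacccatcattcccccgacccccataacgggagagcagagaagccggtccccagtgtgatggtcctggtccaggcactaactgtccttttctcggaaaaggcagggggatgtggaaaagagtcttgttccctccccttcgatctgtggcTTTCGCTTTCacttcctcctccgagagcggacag
PSMB10: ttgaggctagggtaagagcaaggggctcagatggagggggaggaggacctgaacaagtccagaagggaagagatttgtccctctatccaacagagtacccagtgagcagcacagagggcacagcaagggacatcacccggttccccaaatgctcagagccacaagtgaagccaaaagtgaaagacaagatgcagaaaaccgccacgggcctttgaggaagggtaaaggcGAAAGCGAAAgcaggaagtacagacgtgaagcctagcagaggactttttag
PSME1: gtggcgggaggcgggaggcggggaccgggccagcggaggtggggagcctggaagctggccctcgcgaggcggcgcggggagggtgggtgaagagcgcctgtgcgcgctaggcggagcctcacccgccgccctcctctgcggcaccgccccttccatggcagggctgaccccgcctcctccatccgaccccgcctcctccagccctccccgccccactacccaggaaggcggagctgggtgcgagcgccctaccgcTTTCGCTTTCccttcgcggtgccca
PSME2: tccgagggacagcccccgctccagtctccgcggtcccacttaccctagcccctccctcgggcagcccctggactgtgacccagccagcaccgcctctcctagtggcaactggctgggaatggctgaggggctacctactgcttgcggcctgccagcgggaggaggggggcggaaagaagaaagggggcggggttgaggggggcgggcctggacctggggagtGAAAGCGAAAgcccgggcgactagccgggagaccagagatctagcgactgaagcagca

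In the 19S particle, 16 of 17 genes had a peak (Wilson interval 73.0 to 99.0%, beside 68.8% of all protein-coding genes). The ATPase genes had folds of 9.03 or more wherever a peak was found, led by PSMC3 (chromosome 11, 47418775 to 47426439) at 20.8 (18.0 to 23.9), from 197 fragments over a control level of 8.51 and with a −log10 q of 185. Its interval lay above those of the other ATPase genes with a peak, which had 11.5 at PSMC4, 10.4 at PSMC5, 9.26 at PSMC2 and 9.03 at PSMC6. The summit of PSMC5 also lay near FTSJ3 and that of PSMC2 near PMPCB. All 11 genes of the non-ATPase subunits had a peak (Wilson interval 74.1 to 100%), with a median of 7.78. They were led by PSMD13, a lid subunit, at 12.3 (9.75 to 15.3) and PSMD14, the enzyme that removes ubiquitin chains, at 12.2 (9.84 to 14.9). The PSMD13 summit also lay near SIRT3, a mitochondrial deacetylase gene. The lid genes PSMD7 and PSMD8 had 9.26 and 9.02, the ubiquitin receptor gene PSMD4 had 8.14 and PSMD12 had 7.78. The scaffold genes PSMD1 and PSMD2 had similar folds of 6.56 and 6.65, and PSMD3 had 6.10. PSMD11 (chromosome 17, 32444510 to 32483319) had 5.13 (4.0 to 6.49), from 68 fragments over the highest control level of the group, 12.4, and its pileup was the median of the 11 genes. With a reach of 5 kb a stronger peak gave PSMD11 a fold of 10.4, as one gave PSMC2 17.1. PSMD6 (chromosome 3, 64010551 to 64024007) had the lowest value of the 47 genes with a peak, with a fold of 2.79 (1.78 to 4.20), from 21 fragments over 6.88, a −log10 q of 3.39 and a width of 305 bp. Of all genes with a peak 2.18% lay below it, and of the 47016 peaks 15.6%.

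Genes that help to build or regulate the proteasome all had peaks, in classes of at most 4 genes, beside 68.8% of all protein-coding genes. Of the chaperones that assemble the base of the 19S particle, PSMD9 (chromosome 12, 121888790 to 121918297) had a fold of 18.6 (15.4 to 22.2), from 121 fragments over 5.57, PSMD5 had 14.7 (12.3 to 17.4) and PSMD10, also known as gankyrin, had 8.48. The PSMD9 summit also lay near HPD, an enzyme gene of tyrosine breakdown. Of the chaperones that assemble the core, PSMG3 had 13.6, PSMG4 13.2, PSMG2 12.0 and PSMG1 7.56, and 2 of these values moved with the rule: PSMG3 had 7.08 with summits inside the gene only, and PSMG2 had 4.39 with summits near its ends only. The nuclear activator gene PSME3 had 14 (11.7 to 16.6), or 2.79 with summits inside the gene only, and the gene of the large activator PSME4 had 9.28 (7.17 to 11.8), or 3.77 with summits inside the gene only, while PSMF1, which encodes an inhibitor of the core in the test tube, had 8.92. The prefix genes PSMC3IP and PSME3IP1 had 9.63 and 10.3. Of these, the summit of PSMG1 was shared with BRWD1, that of PSMG2 with CEP76, that of PSME4 with ACYP2 and that of PSME3IP1 with RSPRY1, each with an end in reach.

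No peak was listed at PSMA8, PSMB11 and PSMC1. PSMA8 encodes a testis form of an alpha subunit and PSMB11 the cutting subunit of the thymus, and neither belongs to the proteasome of most tissues. The nearest summits lay 33242 bp from PSMA8 and 7134 bp from PSMB11, the latter being the PSMB5 peak. Why no peak was listed at these genes was not tested. PSMC1, unlike PSMA8 and PSMB11, encodes an ATPase of the 19S ring itself. Its nearest summit (chromosome 14, 90331813) lay 56384 bp beyond the gene (90256553 to 90275429), within reach of NRDE2, with a fold of 11.7 (9.27 to 14.6). Its promoter (chr14:90256303-90256582, plus strand) is shown because this gene is the exception. Its GC content over the full window was 48.3%, against a median of 62.0% over the promoters of proteasome genes. PSMC2, with a peak, had 44.7% and PSMA8, without one, had 61%. A link between GC content and a peak was not tested. The promoter of PSMC1 holds neither CACGTG nor CACGCG, and no letters are in capitals.
PSMC1: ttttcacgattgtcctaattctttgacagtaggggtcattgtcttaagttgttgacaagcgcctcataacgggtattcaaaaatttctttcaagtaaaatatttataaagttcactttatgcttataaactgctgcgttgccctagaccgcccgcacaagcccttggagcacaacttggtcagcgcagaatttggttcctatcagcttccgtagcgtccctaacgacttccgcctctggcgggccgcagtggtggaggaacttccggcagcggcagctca
The list ends at a −log10 q of 1.3 and its smallest pileup is 14 fragments, so a weaker signal at PSMC1 would not have been listed.

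Strongest summits at proteasome genes mostly lay to either side of the start, as they did in protein-coding genes as a whole. Starts came from the promoter table, which held 44 of the 50 genes. It lacked PSMA7, PSMB1, PSMB6, PSMB7, PSMD4 and PSMG3. A summit lay within 1 kb of a start in 40 of the 44 (90.9%), and in 60.1% of all protein-coding genes in the table. For the 41 genes with both a start and a peak, the strongest summit lay within 1 kb of a start in 39 (95.1%, against 73.3% of all such genes), at a median distance of 185 bp (292 bp over all such genes). It lay downstream in 21 and upstream in 20, a split not worked out for all genes. Of the 41, 16 (39.0%) had it 100 to 199 bp downstream, and of all 11299 such genes 21.8%. The upstream summits were spread more widely, with 18 of 41 (43.9%) between 101 and 500 bp before the start, compared with 26.0% of all such genes. None of the 41 had it in the last 100 bp before the start, where 1.71% of all such genes had theirs. In the first 100 bp after the start 2 had it (4.88%), against 7.01% of all such genes.

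The downstream summits were closely spaced among genes of different classes. In 9 of the 41 genes (22.0%) the strongest summit lay 130 to 149 bp into the gene, a band chosen after the values were seen that held 5.11% of all such genes. Distances were 130 bp at PSMD7, 134 bp at PSMD12, 135 bp at PSMA6, PSMD11 and PSMF1, 137 bp at PSMD9, 138 bp at PSMC2, 142 bp at PSMB5 and 147 bp at PSMD14. Their folds ran from 5.13 at PSMD11 to 18.6 at PSMD9, so a shared distance did not go with a shared fold.

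**Figure D3:**
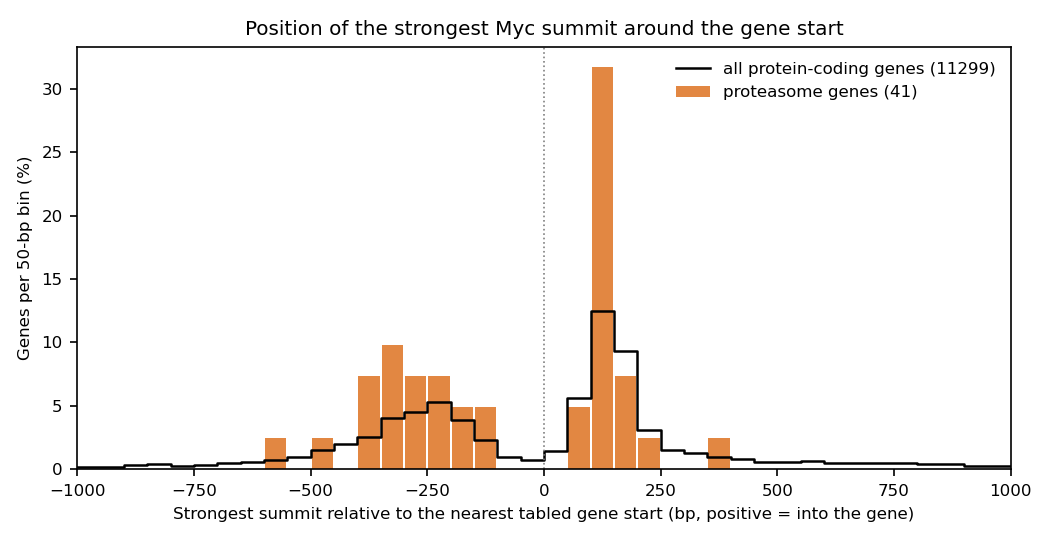
Bars give the percentage of 41 proteasome genes, and the line that of 11299 protein-coding genes, whose strongest summit fell in each 50-bp bin around the nearest tabled start (x axis in bp, positive into the gene). Both show a peak downstream of the start and a broader one upstream with a gap at the start, and 31.7% of proteasome genes fall in the bin from 100 to 149 bp against 12.5% of all genes.

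The E-box was found in a small share of proteasome promoters, close to its share elsewhere. CACGTG, searched on both strands, was in a promoter of 4 of the 44 genes (9.09%), namely PSMB3, PSMD9, PSME3 and PSME3IP1, and in 10.9% of all protein-coding genes in the table and 12.3% of those with a peak. Counted by promoter, of which a gene can have several, it was in 5 of 55 (9.09%), against 8.34% of all 22199, so the small difference changed direction with the way of counting. Its variant CACGCG was in 5 (11.4%), namely PSMA5, PSMA8, PSMC3, PSMC4 and PSME4, against 18.1% of all genes. The general pattern CANNTG, which includes CACGTG, was in 72.7%, against 70.5%. In these windows 9 of 44 genes (20.5%) had either CACGTG or CACGCG, against 26.3% of all genes and 30.3% of those with a peak. They include the 4 genes with the highest folds, PSMA5, PSMC3, PSMB3 and PSMD9, and also PSMA8, which had no peak. PSMA1, PSMA2 and PSMA3, which had the next highest folds, had neither. A link between these letters and the fold was not tested. The windows cover 300 bases and many summits lay outside them. PSME3 had both within its window: its E-box began 42 bases before the start and its summit lay 157 bp before the start. Its promoter (chr17:42833147-42833426, plus strand) has the E-box in capitals.
PSME3: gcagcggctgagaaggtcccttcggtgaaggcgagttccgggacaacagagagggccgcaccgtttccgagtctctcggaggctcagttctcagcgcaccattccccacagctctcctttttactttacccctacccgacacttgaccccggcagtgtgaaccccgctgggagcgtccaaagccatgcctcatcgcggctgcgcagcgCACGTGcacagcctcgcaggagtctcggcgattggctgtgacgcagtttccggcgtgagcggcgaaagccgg

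A pattern like the antioxidant response element was found in a larger share of proteasome genes than of all genes. NFE2L1, the factor that raises proteasome transcription when the proteasome is blocked, acts through antioxidant response elements, and the pattern TGACNNNGC was in 15 of 44 genes (34.1%), against 17.9% of all genes in the table and 19.2% of those with a peak. The 15 came from most classes: PSMA4, PSMB3, PSMB9, PSMC4, PSMC5, PSMD1, PSMD3, PSMD5, PSMD9, PSMD12, PSME1, PSME2, PSME4, PSMG1 and PSMG2. The looser TGANNNNGC, which includes the former, was in 65.9%, against 49.6%. CCAAT was in 50%, against 42.1% of all genes and 42.7% of those with a peak. The GC box GGGCGG was in 70.5%, above the 64.3% of all genes and below the 74.9% of genes with a peak. The site of nuclear respiratory factor 1 (GCGCA and GCGC with 1 free base between) was in 11.4%, between the 9.67% of all genes and the 12.4% of genes with a peak. The 55 promoter windows of proteasome genes had a median GC content of 62.0%, close to the 62.3% of all 22199 windows of protein-coding genes, and some genes have several overlapping windows. A match describes letters and not binding by the factor, and these shares were not tested.

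**Figure D4:**
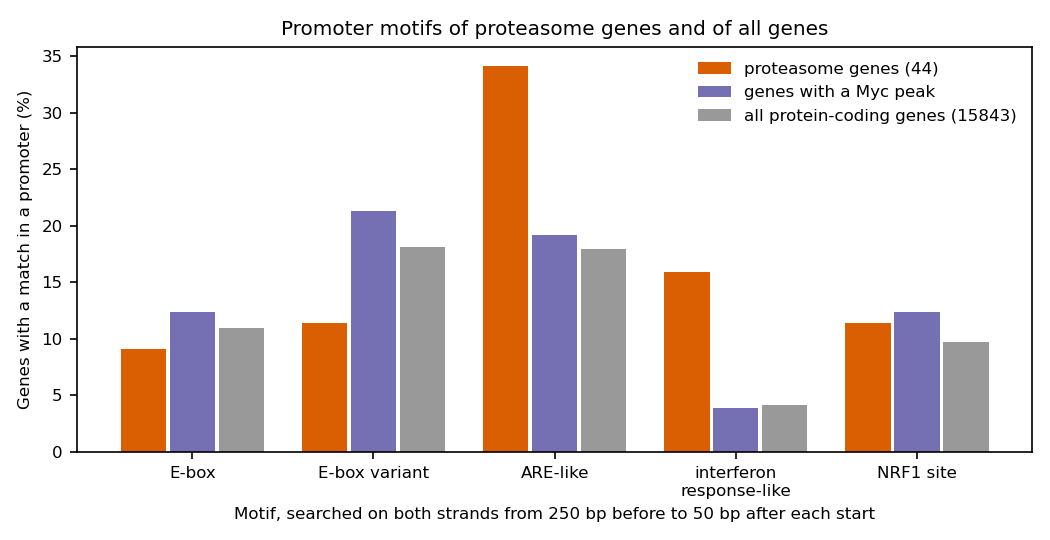
Bars give the percentage of genes with at least 1 match in a promoter window, for 44 proteasome genes, for protein-coding genes with a Myc peak and for all 15843 protein-coding genes in the table. The ARE-like and interferon response-like patterns are higher in proteasome genes (34.1% and 15.9%) than in all genes (17.9% and 4.16%), and the E-box is lower (9.09% against 10.9%, counted by gene).

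Proteasome genes mostly had a single peak. In 31 of the 47 genes 1 summit was in reach and in 16 (34%) there were 2 or more, while 50% of all genes with a peak had 2 or more. Longer genes have a longer window, and the median proteasome gene was the shorter (13551.5 against 24115 bp). The shares were not adjusted for length. Together the 50 genes had 73 summits, and the 26 that were not the strongest of their gene had a median fold of 3.63, with values from 2.35 at PSMD12 to 14.3 at PSMA1. PSMA1, the longest gene of the alpha subunits, had 7 summits and PSMG2 had 5. Apart from that of PSMA1, further peaks with folds above 7 were one 40 bp beyond the far end of PSMD9, at 12.9 (10.4 to 15.8) and also near CFAP251, and one each in PSMG2 and PSMG3, both at 7.08. The summit nearest to the limit of the rule was a second one of PSMA7, at 986 bp outside the gene, with a fold of 4.97. The strongest summits lay inside the gene in 26 genes and outside it in 21, the farthest being that of PSMB1 at 720 bp. In 14 of 47 (29.8%) a neighbouring coding gene began or ended within 1 kb of the same summit, which held for 23.6% of all genes with a peak.

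Other genes of the ubiquitin-proteasome pathway also mostly had a peak, beside 68.8% of all protein-coding genes. Of 28 partner genes, among them those of proteasome-bound receptors, shuttle factors, assembly factors and the transcription factors that induce the subunits, 27 had a peak (96.4%, 82.3 to 99.4), with a median fold of 10.2. The highest were PAAF1, which binds the 19S ATPases, at 28.1 (24.7 to 31.8), UBQLN4, a shuttle factor, at 17.3 (14.2 to 20.9), and UBE3C, a ubiquitin ligase of the proteasome, at 15.4 (12.5 to 18.9). The PAAF1 summit was shared with COA4, the UBQLN4 summit with LAMTOR2 and the NFE2L1 summit with COPZ2. NFE2L1 had 13.3 (10.9 to 16.0) and the core maturation gene POMP 11.9 (9.76 to 14.4). The lowest fold among the partners was the 3.77 of UBB, which encodes ubiquitin. Of the antigen presentation genes that work with the immunoproteasome, TAP2 had 8.31, TAPBP 9.68, B2M 8.09 and the transcription factor genes IRF1 8.25 and NLRC5 3.05, and the TAP1 peak was that of PSMB9.

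In 2 other complexes each gene had a peak, beside 68.8% of all protein-coding genes. The chaperonin TRiC, which folds actin and tubulin, had a peak at 8 of 8 genes with a median fold of 15, and the anaphase-promoting complex, a ubiquitin ligase of mitosis, at 14 of 14 with a median of 11.6. The proteasome median of 9.63 was lower than both, but folds overlapped widely: CCT8 had 7.36 and CCT5 31.5, and in the anaphase-promoting complex values ran from 6.80 to 50.2. These differences were not tested.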

How the data were processed

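Per the labels' protocols, DNA released by CUT&RUN from 3 Myc, 3 IgG and 1 input library was sequenced. Per the submitters' processing notes, reads were handled with BWA 0.7.15, Picard 2.19.0 and MACS2 2.1.2 among other tools, on build hg38. The sources used here do not give settings, the control library or how replicates were pooled. The authors deposited 1 peak list with, for each peak, a fold enrichment (a ratio to the control level) and the −log10 of the p-value and q-value at the summit.

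From each deposited fold and −log10 p-value the pileup and control level were solved for. The fold was read as (pileup + 1)/(control + 1), the p-value as the upper tail of a Poisson distribution. A whole number gave back the listed value within 0.001 for 47016 of 47016 peaks, and for 100% of 2000 simulated peaks. Genes, starts and promoters came from RefSeq tables of GRCh38.p14, with positions counted from 1. A gene's value is the fold of its strongest peak with a summit in the gene or within 1 kb. Computation used Python 3.11.15, pandas 2.3.3 and scipy 1.17.1. Nothing was tested across libraries, since the list has no values per library. Members, gene lists, motifs and the printed promoters were chosen with earlier results of these data known. Genes were named in more detail if among the 5 highest or 5 lowest folds, the cutting subunits and the interferon-induced genes; partners are named for the 3 highest folds, and others were named for their role. The partner without a peak is not reported here. Windows, thresholds, peak sharing and peak width were varied.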

Additional observations from a re-analysis of the deposited data

How the results depend on the processing

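Over the 13 alternative ways of linking peaks to genes, between 32 and 47 of the proteasome genes had a peak (64.0% to 94.0%), all protein-coding genes ranged from 55.5% to 72.7%, and the proteasome share was the higher in 13 of 13. The median fold of proteasome genes ranged from 8.68 to 10.4, and was above that of all genes with a peak in 13 of 13. The 13 are not independent checks. Keeping 1 summit per interval gave back the main values, and reaches of 2 and 5 kb or overlap of the whole peak could not lower the proteasome count. With summits inside the gene only, 9 of the 15 genes outside the core, 19S and immunoproteasome classes had a peak (60.0%, against 57.5% of all genes). The median fold of proteasome genes was then 8.68, since 21 strongest summits lie outside the gene. Without peaks near another protein-coding gene, 8 of the 15 (53.3%) and 1 of the 3 immunoproteasome genes (PSMB10, 33.3%) had one. Both shares were below the 55.5% of all genes in that setting. Without peaks wider than 2 kb, 36 of the 50 genes had a peak (72.0%, against 60.3% of all genes), and PSMA2, PSMB3 and PSMD14 were among those without. The median fold was then 8.70, and 7 values moved beyond their interval to that of a further peak: PSMA1 14.3, PSMG2 7.08, PSMA5 6.56, PSMA7 4.97, PSME4 3.77, PSMB10 3.18 and PSMD12 2.35. With summits inside the gene only, PSMA1 had 14.3, PSMG3 7.08, PSMD1 4.43, PSMB2 3.98, PSME4 3.77 and PSME3 2.79. Within 1 kb of an end, PSMA7 had 4.97, PSMG2 4.39 and PSMB10 3.18. Counting CACGTG or CACGCG gave 9 genes in place of 4, and TGANNNNGC gave 29 in place of 15, as a looser pattern must. The other 86 values for groups stayed within the limits set for them. These limits were wide: the fall from 47 to 32 genes with a peak, with summits inside the gene only, counted as within them. No paired analysis was possible because the list holds no value per library, and for the same reason no library could be left out. Depth per library is unknown, and weak sites under about 14 fragments are not in the list.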
